A study of Bos taurus with 6 samples.

Results

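Genes of messenger RNA deadenylation and decay were examined in 6 RNA-seq libraries, each from a single bovine morula. They were chosen by symbol: CNOT, EXOSC, LSM with a number, DCP1, DCP2, EDC, PAN2, PAN3, BTG with a number, ZFP36, UPF, SMG with a number and XRN. Of 13683 symbols with a row of their own, 46 met this rule. LSM2 and LSM12 shared a merged locus with a neighbour in some libraries and were set aside, which left 44. The study set embryos with inhibited MAT2A against solvent controls; MAT2A is the synthase of S-adenosylmethionine, the methyl donor of the cell. In the MAT2A-inhibited group, 3 embryos made by in vitro fertilization received 20 µM FIDAS-5, an inhibitor of MAT2A, from 72 h (day 3, 8 to 16 cells) to 144 h (day 6). The Control group held 3 embryos in 0.1% DMSO over the same interval. All were cultured in mSOF with bovine serum albumin under 5% oxygen, and libraries were made with a low-input kit for polyA RNA. The labels do not state whether the embryos of a group were cultured apart. Each p-value therefore rests only on how these embryos varied, in the gene itself and in other tested genes, and this variation may be technical.

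Most messenger RNAs begin to decay when the poly(A) tail is shortened, first by PAN2-PAN3 and then by the CCR4-NOT complex. The shortened message is then decapped by DCP2 and degraded from the 5′ end by XRN1, or degraded from the 3′ end by the exosome. Nonsense-mediated decay removes messages on which translation stops too early. In early mammalian embryos these enzymes clear messages that the oocyte stored, before and while the embryo's own genome takes over.

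Levels are given in FPKM, fragments scaled to transcript length and to library size, a unit meant for comparison between genes. For some genes the assembled locus was short or the FPKM lay outside its deposited bounds, so comparisons between genes are approximate. The estimated depth was 46500000 to 57700000 fragments per library in MAT2A-inhibited embryos and 53400000 to 59900000 in Control embryos. MAT2A itself was at 91.4, 53.2 and 70.5 FPKM in MAT2A-inhibited embryos, against 74.8, 79.2 and 74.2 FPKM in Control embryos (limma adjusted p = 0.914). FIDAS-5 acts on the protein, so the transcript does not measure the inhibition directly, and whether S-adenosylmethionine fell was not tested. The pluripotency factor POU5F1 was at 254.8 to 376.4 FPKM in MAT2A-inhibited embryos and 312.3 to 431.0 FPKM in Control embryos, abundant in every library. SOX2, another such factor, was at 45.2 to 50.8 FPKM in MAT2A-inhibited embryos and 27.6 to 41.5 FPKM in Control embryos, and NANOG at 1.16 to 1.88 FPKM in MAT2A-inhibited embryos and 2.54 to 20.3 FPKM in Control embryos. The groups were apart for both, in opposite directions, and neither passed limma (adjusted p = 0.746 for each). CDH1, the adhesion protein of compaction, was listed at 0, 139.1 and 323.4 FPKM in MAT2A-inhibited embryos 1 to 3. It was at 60.2, 49.1 and 164.1 FPKM in Control embryos, with overlap (limma adjusted p = 0.896). DPPA3, also a listed morula marker, is given with the oocyte transcripts. The 8 cumulus or fibroblast markers summed to 43.5 to 82.9 FPKM in MAT2A-inhibited embryos and 60.3 to 129.2 FPKM in Control embryos. Most of that sum was SERPINE2, and VIM, COL1A1 and HAS2 were at 0.501 FPKM or less. DCN and LUM were at 11.002 and 4.81 FPKM in Control embryo 2, and at 0.739 FPKM or less elsewhere. COL1A2 was at 0.529 to 1.06 FPKM in MAT2A-inhibited embryos and 0.231 to 4.29 FPKM in Control embryos. The 5 sperm markers summed to 5.25 to 11.5 FPKM in MAT2A-inhibited embryos and 3.68 to 4.79 FPKM in Control embryos. The 4 blood markers summed to 81.9 to 111.0 FPKM in MAT2A-inhibited embryos and 66.5 to 133.8 FPKM in Control embryos, most of it HBA, with HBB at 1.72 FPKM or less. Y-linked transcripts summed to 58.2 and 118.2 FPKM in MAT2A-inhibited embryos 2 and 3 and to 0.193 FPKM or less in the other 4 embryos. The part of these differences in the results below was not tested.

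No decay gene passed the test of MAT2A inhibition. The test was limma on log2(FPKM + 1) with Benjamini-Hochberg adjustment over 7319 genes, those with at least 1 FPKM in 3 of the 6 libraries, and 43 of the 44 decay genes entered it. It called 0 of the 43, where it called 3 of all tested genes (0.041%), and the adjusted p of the decay genes ran from 0.732 to 0.990. Of the 3 called genes, 2 were higher in MAT2A-inhibited embryos (0.0273%) and 1 was lower (0.0137%). An unadjusted p below 0.05 was found for 2 decay genes, SMG8 and EXOSC2, or 4.65%, against 6.64% of all tested genes. The groups did not overlap for 7 tested decay genes (16.3%), where 13.4% of all tested genes were separated in this way. MAT2A-inhibited embryos lay above Control for 4 of the 7 (9.3% of decay genes, against 8.27% of all tested genes) and below for 3 (6.98% against 5.18%), shares near those of the whole table. Differences, taken as MAT2A-inhibited minus Control in log2(FPKM + 1), had a median of 0.04 for the decay genes and 0.04 for all tested genes. For 36 of the 43 the difference was under 0.5 in size. It was 0.5 or more for 16.3% of the decay genes and for 25.4% of all tested genes, and why these shares differ was not tested. For 27 of the 43 the 95% interval lay within 1 unit of 0 on both sides, and the share over all tested genes is not given here. A difference of 1 on this scale is close to 2-fold for well expressed genes and understates the fold of low ones.

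**Figure D1:**
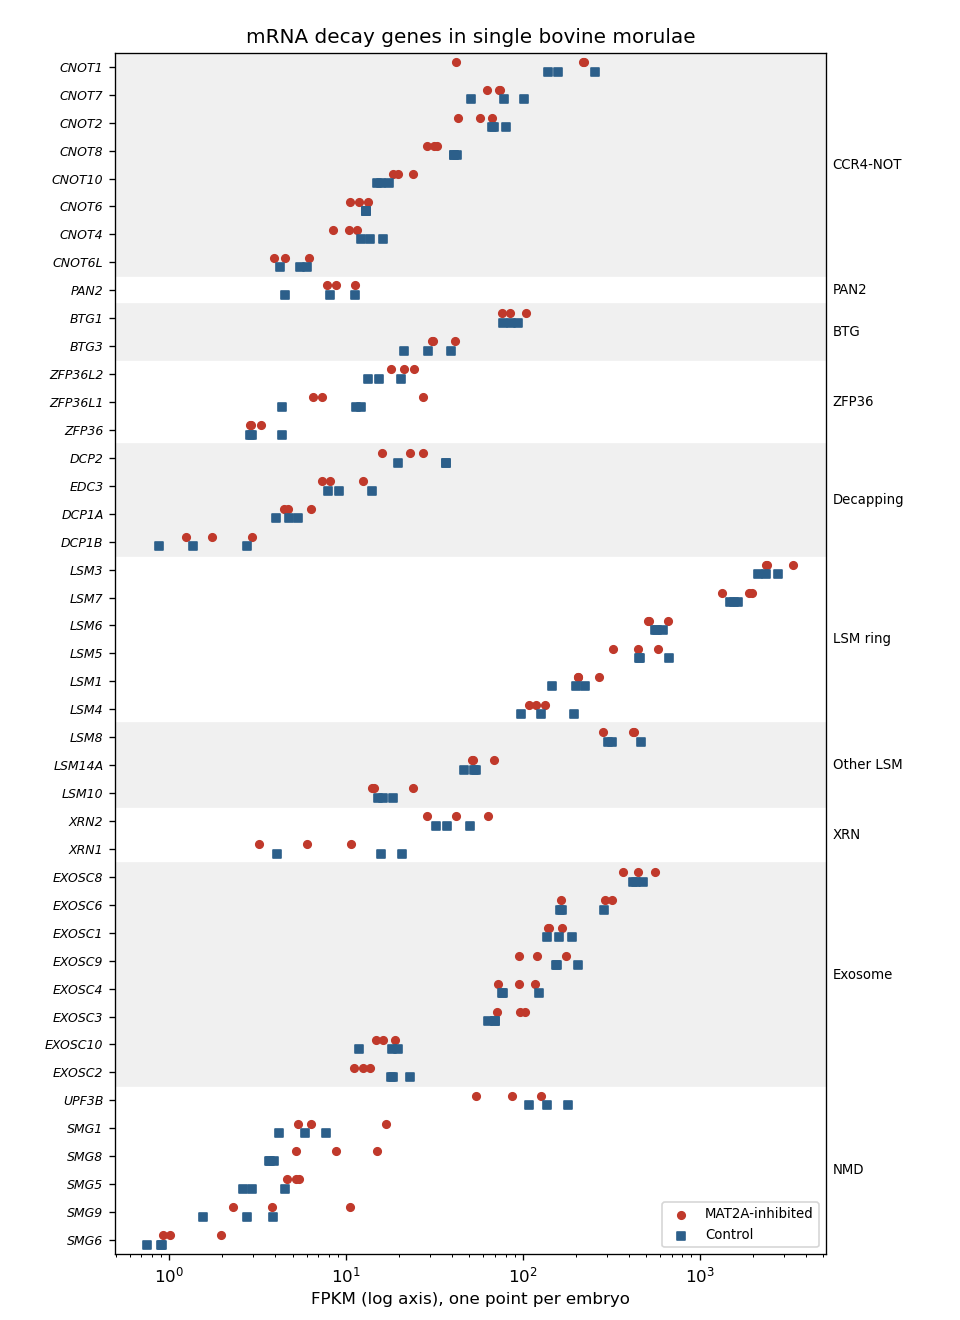
FPKM of 43 decay genes (log axis), grouped by role and ordered by mean within each role; each point is 1 embryo, MAT2A-inhibited (red circles, upper of each pair) and Control (blue squares, lower). Mean levels run from 1.08 FPKM for SMG6 to 2574 FPKM for LSM3, and the groups overlap for most genes.

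The levels of the machinery spanned 3 orders of magnitude, in much the same order in every embryo. Rank correlations between libraries over the tested decay genes, which are not independent replicates, were 0.930 to 0.984. The highest level was that of LSM3, at 2364.3, 3387.1 and 2395.8 FPKM in MAT2A-inhibited embryos and 2145.9, 2375.9 and 2774.0 FPKM in Control embryos. Its mean stood at the 99.6th percentile of all kept genes. The lowest was SMG6, the endonuclease of nonsense-mediated decay, at 1.01, 0.925 and 1.98 FPKM in MAT2A-inhibited embryos and 0.757, 0.909 and 0.902 FPKM in Control embryos. SMG6 reached 1 FPKM in too few libraries to be tested, and its groups did not overlap. For 9 to 12 of the 44 to 46 decay gene rows per library the FPKM lay outside its own deposited bounds, against 8.28% to 10.6% of all annotated rows. LSM3, EXOSC6, EXOSC3 and CNOT2 were among them in 5 or all 6 libraries, and BTG1, CNOT1 and EXOSC1 in 4. These bounds were not used as errors.

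CCR4-NOT removes most of the tail. CNOT1, its scaffold (bosTau8 chromosome 18, 26390037 to 26473032), was the most abundant subunit and the least even between embryos. CNOT1 was at 42.1, 218.3 and 222.7 FPKM in MAT2A-inhibited embryos, against 139.5, 159.0 and 254.8 FPKM in Control embryos. MAT2A-inhibited embryo 1 lay below every other embryo, while the other two treated embryos lay within the Control range. The difference was -0.48 ± 0.62 (SE, limma adjusted p = 0.866) and turned to 0.31 without MAT2A-inhibited embryo 1.

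The deadenylases themselves come as a pair of CAF1-type enzymes, CNOT7 and CNOT8, and a pair of CCR4-type enzymes, CNOT6 and CNOT6L. CNOT8 (chromosome 7, 68039858 to 68058434 in the file of MAT2A-inhibited embryo 1) was at 28.8, 33.0 and 31.6 FPKM in MAT2A-inhibited embryos, against 41.0, 42.6 and 40.6 FPKM in Control embryos. Its groups did not overlap, and its spread within groups was the smallest of all tested decay genes, 0.074 on the log2(FPKM + 1) scale. The difference was -0.40 ± 0.20 (SE, 95% interval -0.88 to 0.07) and did not pass (limma adjusted p = 0.760). Limma draws the SE of each gene towards the spread of genes of similar level, so this SE does not follow from the 0.074 alone. CNOT7 was at 74.4, 73.4 and 63.1 FPKM in MAT2A-inhibited embryos and 51.0, 102.3 and 78.3 FPKM in Control embryos, with full overlap. The level of CNOT7 relative to CNOT8 was 2.27 ± 0.299 in MAT2A-inhibited embryos and 1.86 ± 0.581 in Control embryos (SD, n = 3 each), and these ranges overlapped.

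CNOT6 was at 10.5, 11.9 and 13.3 FPKM in MAT2A-inhibited embryos and 13.0, 13.0 and 13.1 FPKM in Control embryos. CNOT6L was lower, at 4.53, 6.17 and 3.92 FPKM in MAT2A-inhibited embryos and 5.52, 4.27 and 6.00 FPKM in Control embryos. CNOT6 exceeded CNOT6L in each of the 6 embryos, by 1.93 to 3.40 times in MAT2A-inhibited and 2.18 to 3.03 times in Control embryos. The 2 CCR4-type genes together were thus below either CAF1-type gene in every embryo.

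Among the other CNOT genes, CNOT4, a ubiquitin ligase, was at 10.5, 11.6 and 8.47 FPKM in MAT2A-inhibited embryos and 13.7, 16.2 and 12.2 FPKM in Control embryos. CNOT10, part of a module with no catalytic activity of its own, was at 23.9, 19.6 and 18.6 FPKM in MAT2A-inhibited embryos and 15.8, 17.6 and 15.1 FPKM in Control embryos. Neither set of groups overlapped, CNOT4 lying below and CNOT10 above Control, with differences of -0.43 ± 0.27 and 0.33 ± 0.24 (SE). CNOT2, a structural subunit, was at 57.3, 67.4 and 43.1 FPKM in MAT2A-inhibited embryos and 67.2, 80.1 and 68.5 FPKM in Control embryos, with 1 treated embryo just inside the Control range. Of the 8 tested CNOT genes, 7 had a difference below 0, where 54.2% of all tested genes lay above 0, and the limma adjusted p of the 8 ran from 0.760 to 0.953. Their median difference was -0.25, and it ran from -0.38 without Control embryo 1 to -0.095 without MAT2A-inhibited embryo 1. The mean deviation of the 8 from the Control mean was -0.397, -0.00194 and -0.223 in MAT2A-inhibited embryos 1 to 3, and -0.122, 0.0719 and 0.0503 in Control embryos 1 to 3. MAT2A-inhibited embryo 2 thus lay at the Control mean, and Control embryo 1 lay below it. In MAT2A-inhibited embryo 1 the deviation of CNOT1 alone was -2.054, so the mean for that embryo rests largely on 1 gene.

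**Figure D2:**
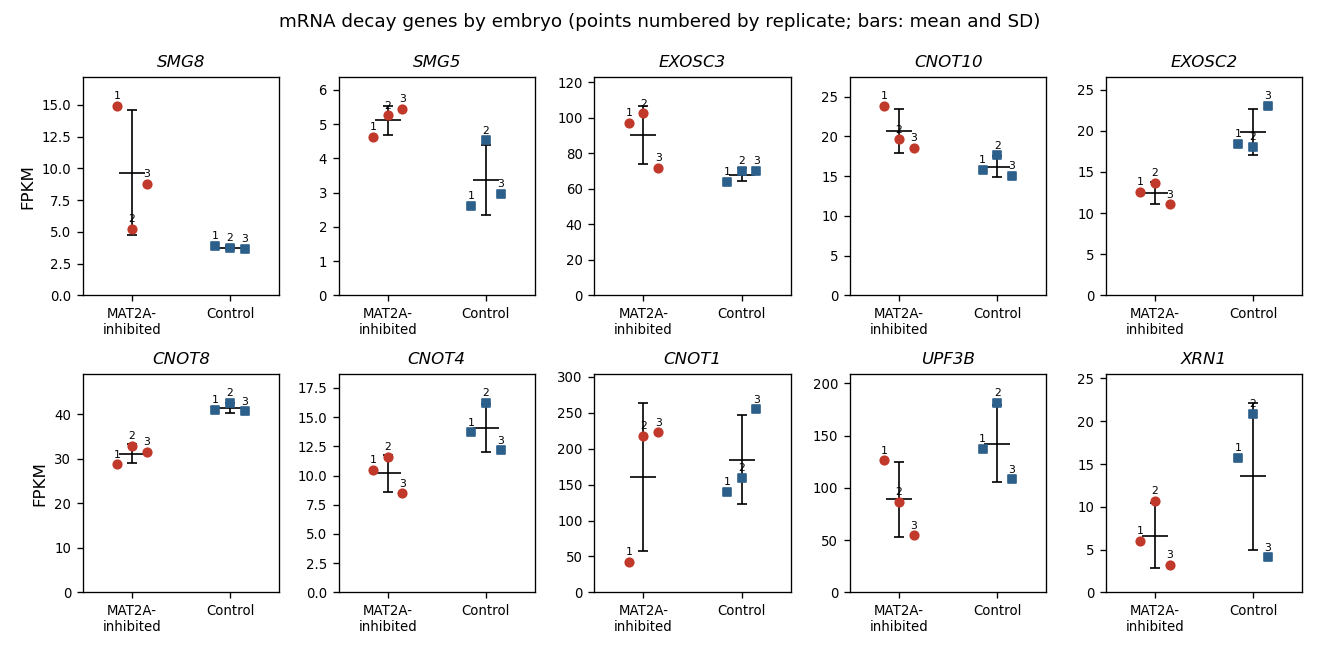
FPKM by embryo for the 7 tested decay genes whose groups did not overlap and for CNOT1, UPF3B and XRN1; points are embryos numbered by replicate, MAT2A-inhibited at left and Control at right, and bars give mean and SD (n = 3). CNOT8 is tight in both groups, and MAT2A-inhibited embryo 1 stands apart from its group in CNOT1 (42.1 FPKM) and SMG8 (14.9 FPKM).

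PAN2, the catalytic subunit of the other deadenylase, was at 8.85, 11.3 and 7.88 FPKM in MAT2A-inhibited embryos and 11.3, 4.54 and 8.10 FPKM in Control embryos. Proteins that bring CCR4-NOT to its targets showed no separation of the groups. BTG1, which binds the CAF1-type deadenylases, was at 104.6, 76.0 and 85.0 FPKM in MAT2A-inhibited embryos and 93.5, 85.9 and 77.3 FPKM in Control embryos. Its relative BTG3 averaged 34.4 ± 6.28 FPKM in MAT2A-inhibited embryos and 29.9 ± 9.15 FPKM in Control embryos (SD, n = 3 each). The ZFP36 family binds AU-rich elements. ZFP36L2 led it, at 21.4, 18.0 and 24.4 FPKM in MAT2A-inhibited embryos and 13.3, 15.4 and 20.5 FPKM in Control embryos. ZFP36L1 was at 27.4 FPKM in MAT2A-inhibited embryo 1 and at 4.35 to 12.1 FPKM in the other 5 embryos. ZFP36 was near 3 FPKM in 5 of the 6 embryos, averaging 3.03 ± 0.245 FPKM in MAT2A-inhibited embryos and 3.41 ± 0.840 FPKM in Control embryos (SD, n = 3 each).

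Decapping removes the 5′ cap. DCP2, the decapping enzyme, was at 23.0, 16.1 and 27.5 FPKM in MAT2A-inhibited embryos and 36.7, 37.0 and 19.7 FPKM in Control embryos. Controls 1 and 2 lay above every treated embryo and Control 3 did not, and the difference was -0.45 ± 0.34 (SE, limma adjusted p = 0.811). It ran from -0.74 without Control embryo 3 to -0.24 without MAT2A-inhibited embryo 2, and passed in neither. Its cofactors were lower in level. DCP1A averaged 5.19 ± 1.05 FPKM in MAT2A-inhibited embryos and 4.70 ± 0.657 FPKM in Control embryos, and its paralog DCP1B averaged 1.99 ± 0.878 FPKM in MAT2A-inhibited embryos and 1.66 ± 0.969 FPKM in Control embryos (SD, n = 3 each). EDC3, an activator of decapping, averaged 9.35 ± 2.77 FPKM in MAT2A-inhibited embryos and 10.4 ± 3.27 FPKM in Control embryos (SD, n = 3 each). DCP2 exceeded DCP1A by 4.29 ± 0.888 times in MAT2A-inhibited embryos and 6.52 ± 1.48 times in Control embryos, with overlapping ranges.

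LSM proteins form rings on RNA. The ring with LSM1 binds shortened tails in the cytoplasm and promotes decapping, and the ring with LSM8 binds U6 small nuclear RNA in the nucleus. LSM7, shared by both, was at 1331.5, 1977.9 and 1897.1 FPKM in MAT2A-inhibited embryos and 1658.4, 1561.4 and 1477.5 FPKM in Control embryos. Of the other shared subunits, LSM6 averaged 563.4 ± 84.5 FPKM in MAT2A-inhibited embryos and 585.7 ± 33.7 FPKM in Control embryos, and LSM5 averaged 451.3 ± 127.8 FPKM in MAT2A-inhibited embryos and 528.6 ± 120.9 FPKM in Control embryos (SD, n = 3 each). LSM4 was the lowest of the tested ring genes, at 120.4 ± 12.8 FPKM in MAT2A-inhibited embryos and 140.1 ± 49.5 FPKM in Control embryos (SD, n = 3 each). LSM1, which defines the cytoplasmic ring, was at 205.9, 271.1 and 205.9 FPKM in MAT2A-inhibited embryos and 146.8, 226.4 and 201.3 FPKM in Control embryos. LSM8 was at 425.2, 418.4 and 284.2 FPKM in MAT2A-inhibited embryos and 464.9, 302.4 and 318.2 FPKM in Control embryos. LSM1 was thus below LSM8 in all 6 embryos, at a ratio of 0.484 to 0.724 in MAT2A-inhibited and 0.316 to 0.749 in Control embryos.

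The 6 tested genes of the LSM1 ring had differences from -0.24 to 0.26 with no groups apart, and the 95% interval was -0.46 to 0.33 for LSM6 and -0.30 to 0.59 for LSM3. LSM10, of the U7 particle that processes histone messages, averaged 17.5 ± 5.60 FPKM in MAT2A-inhibited embryos and 16.6 ± 1.70 FPKM in Control embryos (SD, n = 3 each). LSM14A, a translational repressor of P-bodies, averaged 57.7 ± 9.72 FPKM in MAT2A-inhibited embryos and 51.5 ± 4.12 FPKM in Control embryos (SD, n = 3 each). LSM2, not tested, was at 51.9, 48.2 and 38.2 FPKM in MAT2A-inhibited embryos and 57.3 and 62.9 FPKM in Controls 1 and 3. In Control 2 LSM2 was merged with HSPA1L. LSM12 had a row of its own only in MAT2A-inhibited embryos 1 and 3, at 89.2 and 83.6 FPKM.

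The exonucleases that digest RNA from the 5′ end differed in level. XRN2, the nuclear enzyme, was at 63.3, 41.7 and 28.9 FPKM in MAT2A-inhibited embryos and 37.4, 50.0 and 32.4 FPKM in Control embryos. XRN1, the cytoplasmic enzyme that follows decapping, was at 6.03, 10.7 and 3.25 FPKM in MAT2A-inhibited embryos and 15.7, 20.9 and 4.08 FPKM in Control embryos. As with DCP2, Controls 1 and 2 lay above all treated embryos and Control 3 did not. XRN1 had the lowest difference of the decay genes, -0.81 ± 0.61 (SE, limma adjusted p = 0.812), with a within-group SD of 0.945 that was exceeded only by CNOT1 among them. Leaving out Control 3 gave -1.44, and leaving out Control 2 gave -0.39, neither of which passed. XRN2 exceeded XRN1 by 3.91 to 10.5 times in MAT2A-inhibited embryos and 2.37 to 7.94 times in Control embryos.

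The exosome is a barrel of ring and cap subunits. EXOSC8, a ring subunit, was at 370.0, 556.1 and 446.8 FPKM in MAT2A-inhibited embryos and 421.2, 481.3 and 439.7 FPKM in Control embryos. EXOSC10, a nuclear exonuclease bound to the ring, was at 16.3, 19.1 and 14.9 FPKM in MAT2A-inhibited embryos and 19.7, 18.3 and 11.9 FPKM in Control embryos. Means over all embryos spanned 28.0 times between EXOSC8 and EXOSC2 in messenger RNA. The proteins of the ring and cap are present in equal number in the complex, and levels of protein were not measured in these libraries.

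EXOSC2, a cap subunit (chromosome 11, 100997647 to 101009615), was at 12.5, 13.7 and 11.1 FPKM in MAT2A-inhibited embryos and 18.4, 18.1 and 23.0 FPKM in Control embryos. All 3 treated values lay below all 3 Control values, at 0.626 times the Control mean. The difference was -0.63 ± 0.25 (SE, unadjusted p = 0.0354, limma adjusted p = 0.746). The assembled EXOSC2 locus was 11929 to 11969 bases long in treated embryos and 10082, 11969 and 10110 bases in Controls 1 to 3, and the part of this in the difference was not tested. EXOSC3, another cap subunit (chromosome 8, 62341238 to 62345923), was at 97.1, 102.6 and 71.9 FPKM in MAT2A-inhibited embryos and 63.9, 70.1 and 70.1 FPKM in Control embryos. These groups were apart by less than 2 FPKM, and the difference was 0.39 ± 0.22 (SE, limma adjusted p = 0.772). The EXOSC3 locus was 27975 bases in MAT2A-inhibited embryo 2 and 4686 bases in the others, and without that embryo the difference was 0.29.

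Of the remaining exosome genes, the cap subunit EXOSC1 averaged 148.9 ± 16.1 FPKM in MAT2A-inhibited embryos and 162.4 ± 25.7 FPKM in Control embryos (SD, n = 3 each). The ring subunit EXOSC9 averaged 130.9 ± 41.7 FPKM in MAT2A-inhibited embryos and 172.1 ± 29.0 FPKM in Control embryos, and EXOSC4, also of the ring, averaged 94.9 ± 22.1 FPKM in MAT2A-inhibited embryos and 92.1 ± 27.0 FPKM in Control embryos (SD, n = 3 each). EXOSC6, another ring subunit, was at 321.6, 164.8 and 293.2 FPKM in MAT2A-inhibited embryos and 166.1, 161.6 and 289.8 FPKM in Control embryos. Its locus in the files covers 224 bases, and its FPKM lay outside its bounds in all 6 libraries. Over the 8 tested exosome genes the median difference was 0.02, with 5 above 0 and 3 below, and with median-of-ratios scaling EXOSC4, EXOSC8 and EXOSC10 were below 0 as well.

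**Figure D3:**
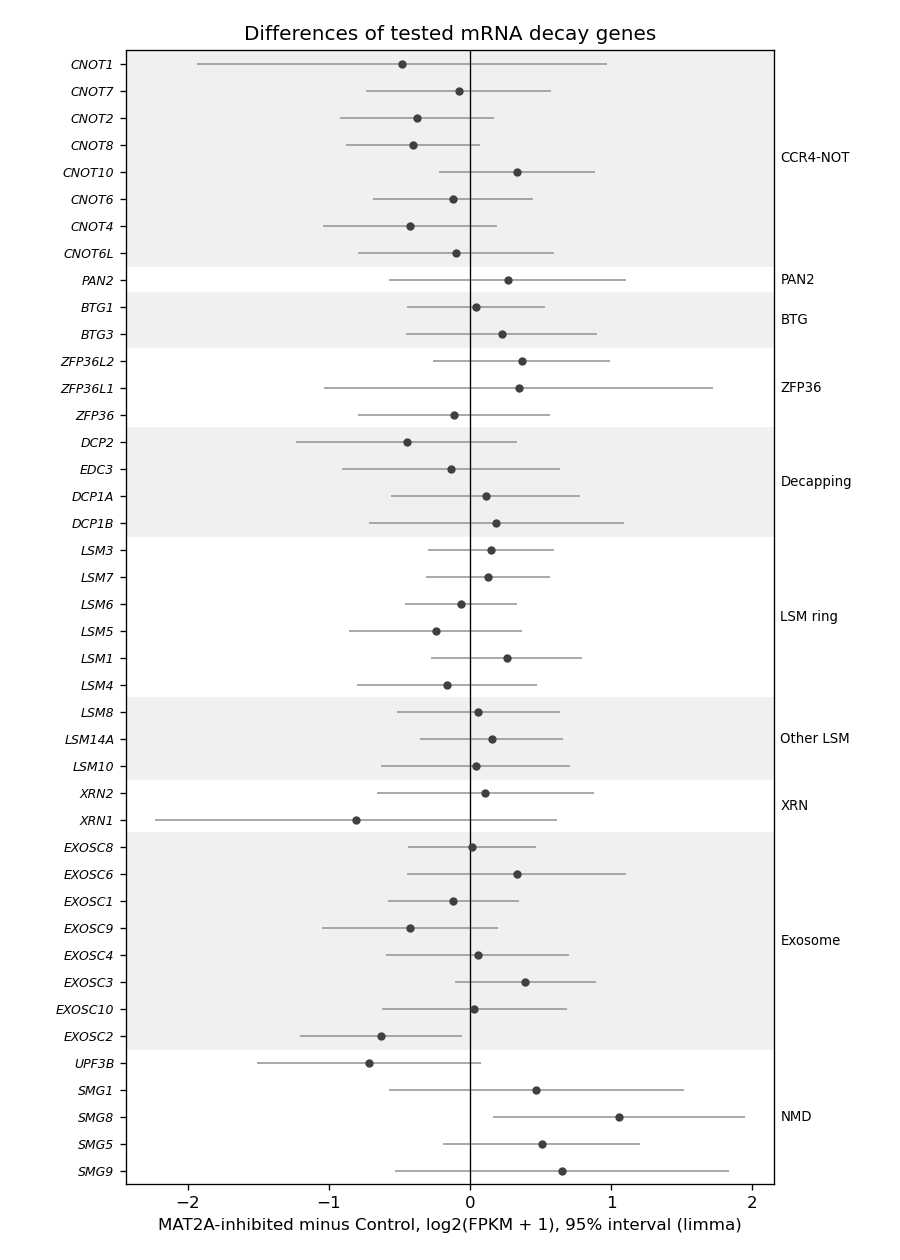
Difference of 42 tested decay genes, MAT2A-inhibited minus Control in log2(FPKM + 1), with limma's 95% interval, grouped by role. The SMG genes shown lie right of 0 and UPF3B left of it, and only the intervals of SMG8 and EXOSC2 leave out 0 before adjustment.

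In nonsense-mediated decay the kinase SMG1 phosphorylates UPF1, SMG8 and SMG9 restrain it, and SMG5 and SMG6 act on the phosphorylated factor. SMG8 (chromosome 19, 10390870 to 10395982 in the file of MAT2A-inhibited embryo 1) had the highest difference of all decay genes. SMG8 was at 14.9, 5.25 and 8.79 FPKM in MAT2A-inhibited embryos and 3.91, 3.74 and 3.66 FPKM in Control embryos. The Control values were nearly equal and every treated value was above them, by a margin that was widest in embryo 1 and narrowest in embryo 2. The difference was 1.06 ± 0.38 (SE, 95% interval 0.17 to 1.95, unadjusted p = 0.0259), and it did not pass over all genes (limma adjusted p = 0.732). It ran from 0.71 without MAT2A-inhibited embryo 1 to 1.39 without MAT2A-inhibited embryo 2, and passed in neither.

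SMG5 was at 4.63, 5.26 and 5.45 FPKM in MAT2A-inhibited embryos and 2.62, 4.52 and 2.96 FPKM in Control embryos, apart by a margin of about 0.1 FPKM. SMG9 was at 3.82, 2.31 and 10.5 FPKM in MAT2A-inhibited embryos and 2.78, 1.56 and 3.90 FPKM in Control embryos. SMG1 averaged 9.48 ± 6.34 FPKM in MAT2A-inhibited embryos and 5.92 ± 1.75 FPKM in Control embryos (SD, n = 3 each). SMG1, SMG5, SMG8 and SMG9 each had a difference above 0, as did 54.2% of all tested genes, and none passed. The mean deviation of these 4 genes from the Control mean was 0.665, 0.178 and 1.17 on the log2(FPKM + 1) scale in MAT2A-inhibited embryos 1 to 3, and -0.0314 to 0.0550 in Control embryos. Embryos 1 and 3 therefore carried most of it, and embryo 2 lay closer to Control.

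UPF3B, which links the exon junction complex to decay, differed from the SMG genes in level and in direction. It lies on chromosome X. UPF3B was at 126.3, 86.7 and 54.7 FPKM in MAT2A-inhibited embryos and 137.2, 181.4 and 108.2 FPKM in Control embryos, a difference of -0.72 ± 0.34 (SE, limma adjusted p = 0.750). MAT2A-inhibited embryos 2 and 3 lay below the Control range and carried Y-linked transcripts, and the part of this in the difference was not tested. With 1 library left out, the difference ran from -1.003 without MAT2A-inhibited embryo 1 to -0.41 without MAT2A-inhibited embryo 3. Without both MAT2A-inhibited embryos 2 and 3, which left embryo 1 alone in its group, the difference was -0.139.

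Most decay genes varied less between embryos of a group than the median tested gene did. The within-group SD on the log2(FPKM + 1) scale had a median of 0.306 over the decay genes and 0.399 over all tested genes, and 30 of the 43 lay below 0.399. Their median level was higher, at 32.2 FPKM, against 12.8 FPKM for all tested genes, and the part of level in the spread was not tested. The highest SDs were those of CNOT1 (1.02), XRN1 (0.945), ZFP36L1 (0.912), SMG9 (0.734) and SMG1 (0.627).

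**Figure D4:**
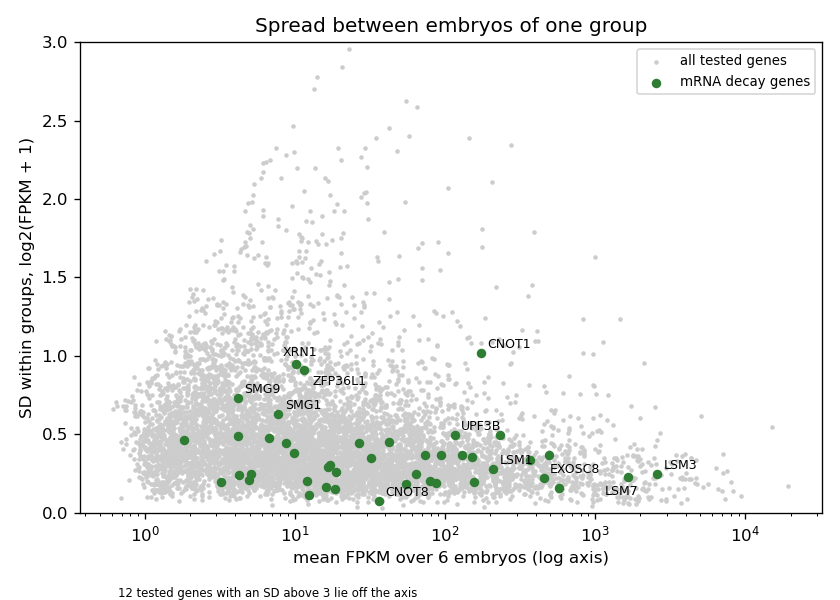
Within-group SD on the log2(FPKM + 1) scale against mean FPKM over 6 embryos (log axis) for all 7319 tested genes (grey) and the 43 tested decay genes (green). Of the decay genes 30 lie below the median SD of all tested genes (0.399), while CNOT1, XRN1 and ZFP36L1 stand near 1.

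Other genes of the pathway, which the symbol rule did not take, were drawn from 6 lists. Of 56 tested, 0 passed limma over all genes and 4 had an unadjusted p below 0.05 (7.14%, against 6.64% of all tested genes), with 28 differences above 0 and 28 below and a median of 0.04. The groups did not overlap for 6 of the 56 (10.7%, against 13.4% of all tested genes). PNRC1, related to a partner of the decapping complex, was at 97.1, 96.5 and 101.5 FPKM in MAT2A-inhibited embryos and 61.4, 73.0 and 57.5 FPKM in Control embryos. C1D, a cofactor of the nuclear exosome, was at 67.4, 61.0 and 117.1 FPKM in MAT2A-inhibited embryos and 44.9, 42.6 and 28.8 FPKM in Control embryos. PAPD4, a cytoplasmic poly(A) polymerase that lengthens tails, was at 47.6, 44.7 and 42.2 FPKM in MAT2A-inhibited embryos and 71.2, 80.6 and 56.3 FPKM in Control embryos. PNRC1 and C1D lay above Control and PAPD4 below it in every embryo, with differences of 0.62 ± 0.19, 1.02 ± 0.32 and -0.61 ± 0.22 (SE, limma adjusted p = 0.701, 0.701 and 0.732).

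MAGOH, of the exon junction complex, averaged 771.9 ± 90.7 FPKM in MAT2A-inhibited embryos and 1078.8 ± 213.4 FPKM in Control embryos (SD, n = 3 each, limma adjusted p = 0.746). The remaining genes named by the rule for these lists had differences of -0.41 for the deadenylase PARN, 0.31 for PAIP1, 0.64 for the decapping activator PATL1, -0.60 for RBM7, 0.50 for RNPS1, 1.12 for the uridylating enzyme ZCCHC11, -1.16 for TNRC6B and 0.59 for CELF1. RQCD1, the older symbol of CNOT9, averaged 19.3 ± 3.57 FPKM in MAT2A-inhibited embryos and 20.2 ± 5.84 FPKM in Control embryos (SD, n = 3 each). Of 16 listed oocyte transcripts with a row, 7 were tested and 0 passed. Whether their levels in these morulae were stored by the oocyte or made by the embryo was not tested. GDF9, BMP15, NLRP5 and ZAR1 were at 1.59 FPKM or less in every embryo, so these messages were low in both groups in libraries of polyA RNA. How far messages with shortened tails were captured was not tested. ZP3, of the egg coat, was at 0.510, 0.724 and 1.35 FPKM in MAT2A-inhibited embryos and 3.19, 2.64 and 7.46 FPKM in Control embryos. DPPA3, a maternal factor, was also on the list of morula markers. It was at 527.2, 453.5 and 574.5 FPKM in MAT2A-inhibited embryos and 856.4, 660.9 and 881.3 FPKM in Control embryos. Both lay below Control without overlap and had the only unadjusted p below 0.05 among the 7, and neither passed limma (adjusted p = 0.688 and 0.701). The 7 differences split into 3 above 0 and 4 below, with a median of -0.04. Those above 0 were OOEP (0.97), MSX1 (0.48) and CCNB1 (0.20). OOEP, of the subcortical complex of the egg, was at 10.1, 21.99 and 35.7 FPKM in MAT2A-inhibited embryos and 11.02, 4.49 and 17.8 FPKM in Control embryos, with overlap.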

How the data were processed

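Each of 6 single bovine morulae had 1 gene table with RNA-seq values. The submitters' processing notes name TopHat2 2.0.14, Cufflinks 2.2.1 and the build bosTau8. Per the file headers, the authors deposited FPKM per assembled locus and its lower and upper bound. Which annotation was used, and whether libraries were scaled to each other, is not given in the sources used here. Assembly was per library, so locus limits differ and neighbours can merge.

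FPKM of 1 symbol were summed, without unannotated loci. Of 13295 symbols found in all libraries, 13185 were kept after those in a merged locus or with a status other than OK were left out. The test, limma 3.58.1 in R 4.3.3, took log2(FPKM + 1) of genes reaching 1 FPKM in 3 libraries, with a mean-variance trend, two-sided, adjusted over 7319 genes. For 3 embryos against 3 the smallest exact permutation p is 0.1, so no such test was run. Depth was estimated from the bounds of short unannotated loci (100 to 300 bases), of which 99.8% to 99.9% were a whole number of fragments within 0.05; counts of each gene were not recovered, and errors are SDs over embryos. Of genes above 0 in both libraries of a pair, 0% had equal values.

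In simulated data for this comparison (7319 genes, 200 changed among those with a mean log2(FPKM + 1) above 3, 10 runs) limma recovered 22.8% of the 2-fold changes, 67.2% at 4-fold and 89.7% at 8-fold, and made 5.4 false calls per run. Decay genes below that level, SMG5, SMG8 and SMG9 among them, were not among the changed genes. Recovery also depends on how many genes change and by how much, so these shares may be too high for the real data, where 3 genes were called.

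Genes, lists and tests were chosen with earlier results of these data known. Values in every library are given for genes with an unadjusted p below 0.05, with groups that do not overlap and a mean of at least 5 FPKM, with the highest mean of their role, or on a fixed list of enzymes; for the 6 other lists the 2 smallest p-values are named. SMG5, SMG6, SMG9, CNOT2, EXOSC6, LSM1, LSM7, ZFP36L1, RQCD1 and the oocyte genes were given in more detail after their values were seen. Among the 43 tested genes, 1 is counted but not reported here. Of 61 symbols fixed by role, 15 were not analysed here, BTG4, CNOT3, UPF1 and UPF2 among them. Alternatives were TPM, median-of-ratios and quantile scaling, 0.1 as the pseudocount, other filters on low values (none, a mean of 5 FPKM, no gene with a 0), weights per library, a fit with no trend, a block for the replicate number, the highest row per symbol, and libraries left out. Leaving out genes of X and Y was added after seeing the data.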

Additional observations from a re-analysis of the deposited data

How the results depend on the processing

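Limma called 0 of the decay genes under each of the 19 alternatives, with a lowest adjusted p of 0.422 (SMG8, array weights). Over all tested genes the count of 3 became 5 with array weights, 1 with a mean of at least 5 FPKM, 1 with no filter on low values, 0 with no gene with a 0 and 0 without both MAT2A-inhibited replicates 2 and 3. With 1 library left out it ran from 0 (without each MAT2A-inhibited replicate) to 8 (without Control replicate 3). With the replicate block it was 1. Nothing in the labels pairs the embryos. Same-numbered deviations correlated at 0.0456, 0.103 and 0.191, and differently numbered deviations at -0.212 to 0.102. With so few embryos these values cannot decide whether the embryos were paired. The decay genes whose groups did not overlap, 7 in all, numbered 9 to 13 with 1 library left out, where fewer libraries are easier to separate, and 25 without both treated libraries, where the lone treated embryo is assumed to vary like Control; this count was not computed after quantile normalization. The median difference of 0.041 became -0.025 with array weights, -0.016 with median-of-ratios, -0.033 without both treated libraries and -0.030 to 0.080 with 1 library left out.

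Of the 43 tested decay genes, 24 kept the sign of their difference under every alternative in which they were tested, SMG8, SMG5, EXOSC2, EXOSC3, CNOT8, CNOT4 and CNOT10 among them, and 19 did not. The cause was not tested. For the genes named here the groups did not overlap, so leaving out libraries or a smaller pseudocount could not turn their sign. The share over all tested genes is not given here. With array weights, PAN2 was at -0.019, BTG1 -0.025, LSM10 -0.056, EXOSC10 -0.102, LSM8 -0.163, EXOSC4 -0.167 and CNOT7 0.174. With median-of-ratios, EXOSC4 was at -0.005, LSM10 -0.016, BTG1 -0.017, EXOSC10 -0.025 and EXOSC8 -0.044. With quantile normalization, EXOSC10 was at -0.040 and LSM10 -0.041. Without both MAT2A-inhibited replicates 2 and 3, EXOSC10 was at -0.003, LSM3 -0.033, DCP1A -0.060, LSM10 -0.181, LSM7 -0.232, EXOSC8 -0.271, EXOSC4 -0.299, CNOT7 0.003 and EDC3 0.282. With 1 library left out, CNOT1 ran from -0.881 to 0.306, ZFP36L1 from -0.271 to 0.686, LSM4 from -0.389 to 0.100, CNOT7 from -0.348 to 0.147, EDC3 from -0.344 to 0.087, CNOT6L from -0.254 to 0.018, LSM10 from -0.197 to 0.165, ZFP36 from -0.194 to 0.039, EXOSC10 from -0.181 to 0.161, XRN2 from -0.174 to 0.380, EXOSC8 from -0.135 to 0.158, EXOSC4 from -0.110 to 0.280, BTG1 from -0.084 to 0.143, LSM8 from -0.057 to 0.253, PAN2 from -0.045 to 0.529, DCP1B from -0.036 to 0.463, DCP1A from -0.024 to 0.196 and LSM3 from -0.023 to 0.246.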

Other observations

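SKIV2L2, the helicase that feeds RNA to the nuclear exosome, was at 171.7 FPKM in MAT2A-inhibited embryo 3 and at 17.4 to 34.0 FPKM in the other 5 embryos. The exosome cofactors C1D and RBM7 differed in opposite directions. C1D was at 1.02 and RBM7 at -0.60 on the log2(FPKM + 1) scale, MAT2A-inhibited minus Control, and neither passed limma (adjusted p = 0.701 and 0.779). SKIV2L2 and this pair were chosen after their values were seen.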
